A study of Homo sapiens with 6 samples.

Results

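The mRNAs described here encode 47 large regulators of chromatin, and their recovery on the FERRY complex was set against their recovery on the affinity tag GST alone. The members were taken by gene symbol from a list of histone methyltransferases, acetyltransferases and demethylases, nucleosome remodellers and a cohesin loader. All 47 symbols were found among the 60676 Ensembl gene IDs of the count table, and all 47 passed the filter on low counts that left 15546 genes. RNA was eluted from glutathione resin that carried either GST or the GST-Ferry complex, after 1.5 h in lysate of HEK 293 cells grown in suspension, and sequenced after removal of ribosomal RNA. HEK 293 is a human line derived from embryonic kidney, and both baits met lysate of this 1 untreated line. Each bait had 3 libraries. The columns of the table are headed control and sample, with a number each. They were read as GST and GST-Ferry of that number from these words, which is an assumption. No library of the lysate itself was analysed here, so every value compares one bait with the other relative to the library total.

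The chromatin regulators fall into families that write, read or remove marks on histones or use ATP to move nucleosomes. KMT2 and SETD1 enzymes methylate lysine 4 of histone H3, EP300, CREBBP and the KAT6 enzymes acetylate histones, and KDM enzymes remove methyl groups. CHD, SWI/SNF, ISWI and INO80 family proteins are motors or other subunits of remodelling complexes. Most of these proteins act in large assemblies with partner subunits, and many of their mRNAs are long. FERRY is an effector of the GTPase RAB5 on early endosomes that binds mRNA.

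The reference transcripts of the members had a median length of 8.47 kb (4.08 to 19.4 kb), against 3.29 kb for the 12859 tested protein-coding genes with a known length. KMT2D (19.4 kb) and KMT2C (16.9 kb) were the longest members and SMARCC2 (4.08 kb) was the shortest. In 28 of 47 members the transcript was 8 kb or longer, as in 8.06% of the protein-coding genes. The length lay mainly in the coding sequence, with a median of 6.01 kb against 1.44 kb, while the 3' UTR had a median of 1.68 kb against 1.14 kb. The members spanned a wide range of base composition. GC content of the transcript ran from 36.8% in ATRX to 64.8% in SETD1B with a median of 47.5%, close to the 48.9% of the protein-coding genes.

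The composition is visible in the coding sequences of the 3 members with the lowest and the 3 with the highest fold change between baits. These 6 sequences are shown because fold change and base composition ran together over the members, as described below. Each line gives 120 bases in frame from the middle of the coding sequence of the GENCODE 29 reference transcript, 5′ to 3′ in the sense direction. Capitals mark the third position of a codon where it holds G or C.
BAZ2B: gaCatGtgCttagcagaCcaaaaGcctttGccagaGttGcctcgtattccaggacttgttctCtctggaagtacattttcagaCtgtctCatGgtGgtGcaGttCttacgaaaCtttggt
CHD9: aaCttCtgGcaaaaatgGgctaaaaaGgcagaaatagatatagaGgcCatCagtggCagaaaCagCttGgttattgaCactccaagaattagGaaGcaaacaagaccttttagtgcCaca
ATRX: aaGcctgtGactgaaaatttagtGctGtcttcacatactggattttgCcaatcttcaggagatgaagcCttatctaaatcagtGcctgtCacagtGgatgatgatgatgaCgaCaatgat
CHD3: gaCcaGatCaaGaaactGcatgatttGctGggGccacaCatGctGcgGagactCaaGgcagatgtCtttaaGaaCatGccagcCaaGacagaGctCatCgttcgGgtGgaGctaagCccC
SETD1A: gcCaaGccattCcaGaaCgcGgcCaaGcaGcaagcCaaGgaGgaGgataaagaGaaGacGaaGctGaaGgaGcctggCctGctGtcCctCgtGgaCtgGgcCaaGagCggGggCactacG
KDM3B: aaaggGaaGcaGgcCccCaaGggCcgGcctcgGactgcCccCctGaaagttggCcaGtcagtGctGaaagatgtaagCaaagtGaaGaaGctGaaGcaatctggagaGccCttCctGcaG
Of the 40 codons in each stretch, 17 ended in G or C in BAZ2B, 16 in CHD9 and 11 in ATRX. In the other 3 stretches 28 did so in CHD3, 34 in SETD1A and 27 in KDM3B. Over the whole coding sequence G or C filled the third codon position in 31.3% of codons in BAZ2B, 31.3% in CHD9 and 31.5% in ATRX. The share was 65.3% in CHD3, 71.0% in SETD1A and 52.5% in KDM3B. The high end rests in part on 1 control library, GST 3, without which SETD1A stood at -0.03 and CHD3 just below 0. KDM3B (0.35), KDM5B (0.26), CHD4 (0.25) and SMARCA5 (0.20) were then the highest members. G or C filled the third codon position in 47.5% of codons in KDM5B, 56.9% in CHD4 and 37.0% in SMARCA5. On GRCh38, CHD9 lies on chromosome 16 (53055033 to 53329150, plus strand), ATRX on chromosome X (77504878 to 77786233, minus strand) and CHD3 on chromosome 17 (7884806 to 7912760, plus strand). SETD1A lies on chromosome 16 (30957294 to 30984664, plus strand) and KDM3B on chromosome 5 (138352596 to 138437028, plus strand), and the position of BAZ2B is given with its values.

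None of the 47 members passed the test between baits, and most differences were small. Fold changes, written as log2 of GST-Ferry over GST, ran from -0.68 for BAZ2B to 0.37 for KDM3B, with standard errors (SE, the value after ±) between 0.18 and 0.27. Of the 47 members 30 lay below 0 and 17 above, with a median of -0.12, against -0.03 over all 15546 genes. EdgeR's quasi-likelihood test, adjusted by Benjamini-Hochberg over all genes, called 0 members higher and 0 lower at an adjusted p under 0.05. The background was 0.592% of all genes higher and 0.0322% lower, so calls were rare everywhere. The smallest adjusted p among members was 0.113 (BAZ2B). At an unadjusted p under 0.05, 0 members were higher, against 11.3% of all genes, and 6 members or 12.8% were lower, against 8.05%. These 6 were BAZ2B, CHD9, ATRX, INO80, KDM6A and KMT2E. The number lower at this threshold moved with the libraries used. It was 11 members (23.4%, against 12.3% of all genes) without GST 3, 4 (8.51% against 10.1%) without GST 1 and 3 (6.38% against 7.79%) without GST 2. Without GST-Ferry 2 it was 3 (6.38% against 4.87%), and it was 1 (2.13%) without GST-Ferry 1 and 1 without GST-Ferry 3, against 7.60% and 4.09%.

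The 2 baits did not overlap for 18 members. In 16 of them (34.0%) every GST-Ferry library lay below every GST library, against 12.1% of all genes. The reverse held for BAZ2A and KDM3B, which is 4.26%, against 15.0% of all genes. The 16 lower members were KMT2A, KMT2C, KMT2E, SETD2, SETD5, NSD3, KAT6B, CHD1, CHD2, CHD9, ARID2, BAZ2B, INO80, ATRX, KDM6A and NIPBL. Since counts are relative to the library total, less of these mRNAs on the resin and more of other RNAs cannot be told apart. Lysate pools the cells, so the number of cells with an mRNA and its amount per cell cannot be told apart, and both baits met lysate of the same line.

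**Figure D1:**
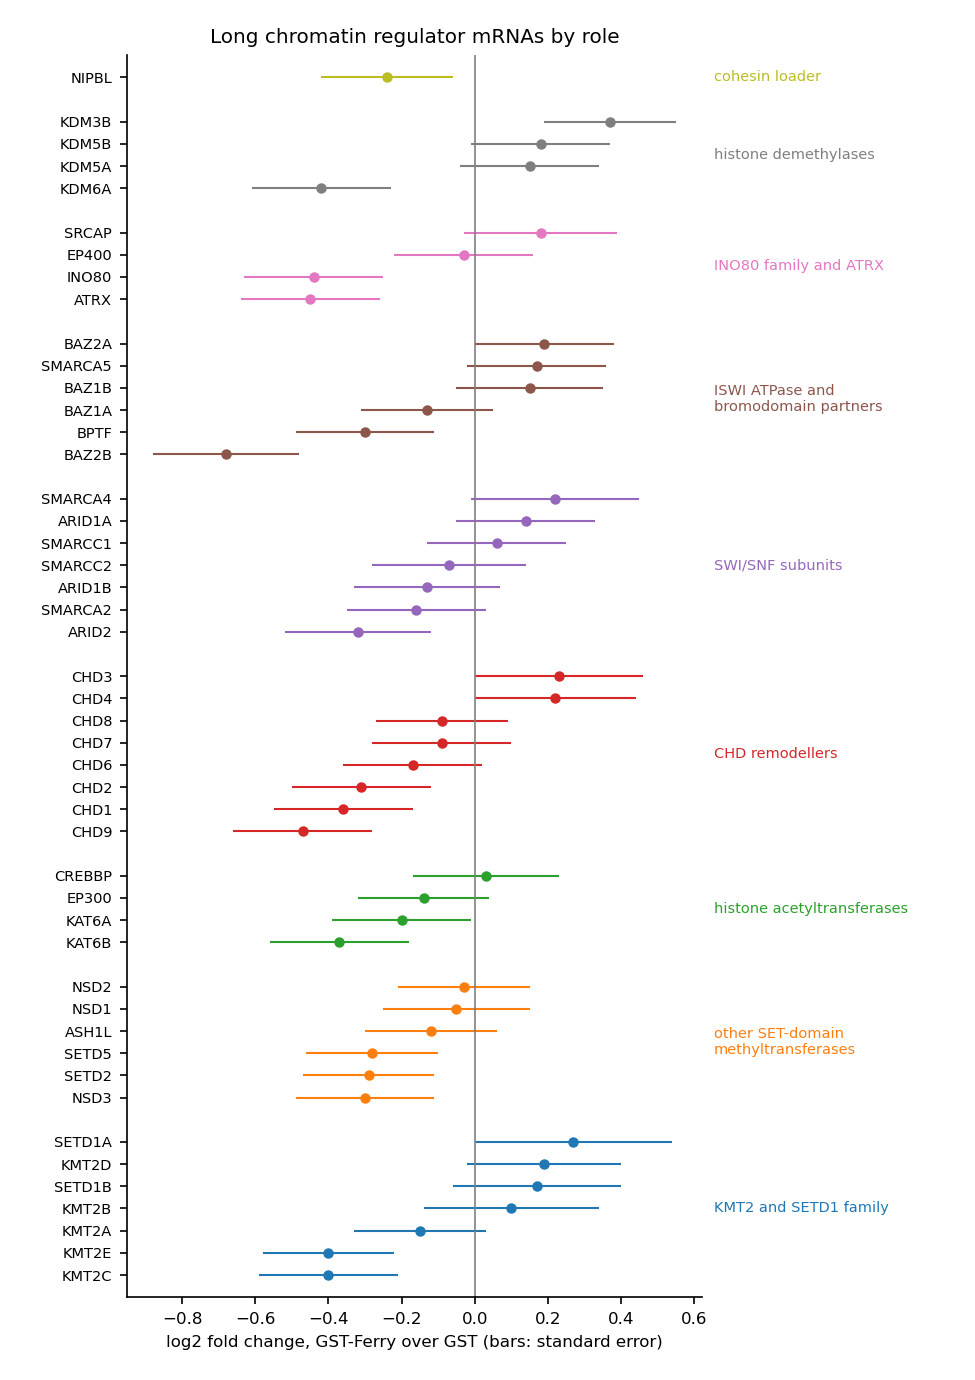
Fitted log2 fold change (x axis, GST-Ferry over GST, points) with its standard error (bars) for each of the 47 members (y axis), grouped by role and coloured by group. BAZ2B at -0.68 lies farthest from 0, all 6 of the other SET-domain methyltransferases lie below 0, and KDM3B at 0.37 is the highest.

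The library GST 3 stood apart from the other controls, and its deviation followed base composition. Log2 levels were taken here relative to the mean of all 6 libraries. Spearman's rank correlation of this level with GC content over the 47 members was -0.77 in GST 3. It was 0.08 in GST 1 and -0.04 in GST 2, and 0.58, 0.33 and 0.74 in GST-Ferry 1, 2 and 3. Over the protein-coding genes it was -0.82 in GST 3, 0.12 in GST 1 and 0.04 in GST 2. The GST-Ferry libraries had 0.36, 0.29 and 0.59 there, so a trend with composition was not limited to GST 3. The mean of all 6 libraries includes GST 3, so these values depend on each other. Of the 12 members with a GC content of 55% or more, 11 were lower in GST 3 than in GST 1 and GST 2. Of the 16 members under 45% GC, 11 were higher in GST 3 than in both. Values without GST 3 are therefore given beside many of the results. Library totals ran from 2454538 to 10466520 counts, and GST-Ferry 2 and GST-Ferry 3 were the smallest. Member counts ran from 71 (CHD4 in GST-Ferry 2) to 5042 (KMT2C in GST 2), so no member was near the floor of 3 counts. As a check of the labels, the bait subunits PPP1R21, C12orf4 and TBCK had log2 fold changes of 8.83, 6.73 and 5.30 (edgeR, adjusted p = 0.0111 each), while CRYZL1 and GATD1 did not pass. GST-Ferry 1 stood apart from its replicates in these 3 mRNAs. In GST-Ferry 1, 2 and 3 PPP1R21 had 798, 18290 and 37620 CPM and C12orf4 795, 6441 and 12090 CPM. TBCK had 617, 4023 and 7155 CPM. GST-Ferry 1 is the library left out together with GST 3 in a fit below. The kidney marker PAX2 and 8 other HEK 293 markers were detected in every library, and 1 of these 9, the keratin KRT18, was called higher (1.18 ± 0.22, edgeR, adjusted p = 0.0427), while NEFL, INA, VIM and KRT8 were higher without overlap but did not pass. Of other cell types, PTPRC, HBB, ALB and PECAM1 had at most 4 counts and GFAP at most 10, and INS reached 38 counts. The fibroblast collagen COL1A1 ran from 18.3 to 57.4 CPM. It was higher without overlap but did not pass (0.66 ± 0.29, edgeR, adjusted p = 0.236). The part of these markers in the members' differences was not tested.

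Without GST 3 the members lay lower, with a median of -0.17, 11 above 0 and 36 below, against a median of -0.01 over all genes. The test then called 1 member lower, BAZ2B (-0.76, edgeR, adjusted p = 0.0146), with a background of 3.54% lower and 4.45% higher. With GST 3 and GST-Ferry 1 both left out, BAZ2B (-0.87, edgeR, adjusted p = 0.00169) and KMT2E (-0.47, edgeR, adjusted p = 0.0475) were called lower and 0 members higher, with a background of 6.51% lower and 11.5% higher. The members' median was then -0.13. DESeq2 on all libraries called BAZ2B alone (-0.70, DESeq2, adjusted p = 0.0408), with a background of 1.56% lower and 4.71% higher. In each of these fits the share of members called higher was 0. Of the 47 members 8 changed sign without GST 3, among them SETD1A, KMT2B, SETD1B, CREBBP and SMARCA4.

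Among the KMT2 and SETD1 family, which methylates lysine 4 of histone H3, the median was 0.10, and -0.09 without GST 3. In the following, the values of a member are given in the order of libraries 1, 2 and 3 of each bait, as CPM, which are read counts relative to library size after scaling by the TMM method. KMT2C, a monomethyltransferase at enhancers, had 443, 459 and 495 CPM in the GST libraries and 375, 317 and 368 CPM in the GST-Ferry libraries. All GST-Ferry libraries were below all GST libraries (log2 fold change -0.40 ± 0.19, edgeR, adjusted p = 0.264), and the value was -0.38 without GST 3. SETD1A, which works with CXXC1 at CpG-rich promoters, had 85.0, 103 and 46.1 CPM in the GST libraries and 82.4, 89.1 and 112 CPM in the GST-Ferry libraries. GST 3 was the lowest library, the groups overlapped (0.27 ± 0.27, edgeR, adjusted p = 0.615), and without GST 3 the value was -0.03. KMT2D, the closest relative of KMT2C, stood at 0.19 ± 0.21 and at 0.03 without GST 3. KMT2E, which lacks clear methyltransferase activity, had 89.5, 90.3 and 80.6 CPM in the GST libraries and 67.5, 63.3 and 67.0 CPM in the GST-Ferry libraries. It was lower without overlap (-0.40 ± 0.18, edgeR, adjusted p = 0.258). KMT2A (-0.15 ± 0.18) was lower without overlap but by less than its SE, and stood at -0.09 without GST 3. KMT2B (0.10 ± 0.24) and SETD1B (0.17 ± 0.23) overlapped and turned to -0.17 and -0.04 without GST 3.

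The other SET-domain methyltransferases all lay below 0, with a median of -0.20 over 6 members and 3 lower without overlap. For this and the following classes, 47.8% of all genes lay above 0 and 12.1% were lower without overlap. Of these 6 members 0 were lower at an unadjusted p under 0.05 (edgeR). NSD1, which dimethylates lysine 36 of histone H3, was the most abundant with 434, 371 and 366 CPM in the GST libraries and 436, 341 and 355 CPM in the GST-Ferry libraries. GST 1 and GST-Ferry 1 were its highest libraries and the groups overlapped (-0.05 ± 0.20, edgeR, adjusted p = 0.917). NSD2, a relative with the same target, had 382, 397 and 368 CPM in the GST libraries and 360.1, 366 and 399 CPM in the GST-Ferry libraries, with overlap and the value nearest to 0 in the class (-0.03 ± 0.18, edgeR, adjusted p = 0.948). NSD3, the third of these relatives, had 143, 131 and 163 CPM in the GST libraries and 123, 121 and 111 CPM in the GST-Ferry libraries. Every GST-Ferry library of NSD3 was below every GST library (-0.30 ± 0.19, edgeR, adjusted p = 0.392). SETD2, which trimethylates the same lysine, stood at -0.29 ± 0.18, SETD5 at -0.28 ± 0.18 and ASH1L at -0.12 ± 0.18. The first 2 of these were lower without overlap.

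The histone acetyltransferases had a median of -0.17, and 3 of 4 lay below 0. EP300, a coactivator that acetylates lysine 27 of histone H3, had 239, 241 and 218 CPM in the GST libraries and 208, 201 and 228 CPM in the GST-Ferry libraries. Its close relative CREBBP had 156, 145 and 107 CPM in the GST libraries and 138, 134 and 144 CPM in the GST-Ferry libraries. Both overlapped, EP300 at -0.14 ± 0.18 (edgeR, adjusted p = 0.710) and CREBBP at 0.03 ± 0.20 (edgeR, adjusted p = 0.956), and CREBBP was lowest in GST 3 and turned to -0.15 without it. KAT6B, which acetylates histone H3 in complexes with BRPF proteins, had 77.9, 92.0 and 96.1 CPM in the GST libraries and 72.5, 64.8 and 68.7 CPM in the GST-Ferry libraries. Its groups did not overlap, and it was the lowest of the class (-0.37 ± 0.19, edgeR, adjusted p = 0.306). KAT6A overlapped at -0.20 ± 0.19.

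The CHD remodellers, ATPases with paired chromodomains, had a median of -0.13, with 6 of 8 below 0. CHD9 had 137, 154 and 174 CPM in the GST libraries and 111, 115 and 108 CPM in the GST-Ferry libraries. All GST-Ferry libraries lay below all GST libraries (-0.47 ± 0.19, edgeR, adjusted p = 0.197), with GST 3 the highest of the 6 and a value of -0.41 without it. CHD3, an ATPase of the NuRD deacetylase complex, had 109.5, 112 and 66.2 CPM in the GST libraries and 105, 111 and 123 CPM in the GST-Ferry libraries. GST 3 alone was low and the groups overlapped (0.23 ± 0.23, edgeR, adjusted p = 0.593). Without GST 3, CHD3 was below 0 by less than 0.01. CHD8, a remodeller that binds beta-catenin, was the most abundant of the class with 311, 277 and 253 CPM in the GST libraries and 272, 259.7 and 258 CPM in the GST-Ferry libraries (-0.09 ± 0.18, edgeR, adjusted p = 0.817), and its groups overlapped. CHD1 (-0.36 ± 0.19) and CHD2 (-0.31 ± 0.19) were lower without overlap, and CHD6 (-0.17 ± 0.19) and CHD7 (-0.09 ± 0.19) overlapped. CHD4, the other main NuRD ATPase, stood at 0.22 ± 0.22. In GENCODE 29 a further gene on the same strand shares 88.8% of the exonic bases of CHD4, and 86.2% of those of SRCAP are shared in the same way. No source used here says how such reads were counted, and the values of both are uncertain. The shares were 26.7% for KMT2A and 16.8% for CHD2.

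The SWI/SNF subunits, parts of a remodeller that opens nucleosomal DNA, had a median of -0.07 and stayed close to 0. SMARCC1, a scaffold subunit and the most abundant by CPM, had 373, 366 and 403 CPM in the GST libraries and 353, 417 and 421 CPM in the GST-Ferry libraries and overlapped (0.06 ± 0.19, edgeR, adjusted p = 0.890). SMARCA4, the ATPase also known as BRG1, had 411, 383 and 235 CPM in the GST libraries and 382, 369.9 and 452 CPM in the GST-Ferry libraries. GST 3 was its lowest library (0.22 ± 0.23, edgeR, adjusted p = 0.620), and the value was -0.01 without that library. ARID2, which marks the PBAF form of the complex, had 96.5, 104 and 132 CPM in the GST libraries and 88.0, 83.5 and 93.5 CPM in the GST-Ferry libraries. It was lower without overlap (-0.32 ± 0.20, edgeR, adjusted p = 0.383), with GST 3 the highest library and a value of -0.21 without it. ARID1A (0.14 ± 0.19), ARID1B (-0.13 ± 0.20), SMARCA2 (-0.16 ± 0.19) and SMARCC2 (-0.07 ± 0.21) all overlapped. Without GST 3 ARID1A was below 0 by less than 0.01 and ARID1B stood at 0.01.

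The ISWI ATPase SMARCA5 and its bromodomain partners held the member with the lowest fold change of all. BAZ2B, a bromodomain protein of ISWI complexes, had 84.0, 94.1 and 76.9 CPM in the GST libraries and 61.2, 44.6 and 53.1 CPM in the GST-Ferry libraries. Its mean was 85.0 ± 8.65 CPM (SD, n = 3) on GST and 52.9 ± 8.32 CPM on GST-Ferry, and the highest GST-Ferry library lay below the lowest GST library (-0.68 ± 0.20, edgeR, adjusted p = 0.113). GST 3 was the lowest of its GST libraries, unlike for most members of low GC content. BAZ2B lies on chromosome 2 (159318979 to 159616692, minus strand) of GRCh38, and 7.53% of its exonic bases are shared with a gene on the opposite strand. BAZ2A, also called TIP5, which silences ribosomal DNA, had 229, 225 and 172 CPM in the GST libraries and 235, 234 and 244 CPM in the GST-Ferry libraries. It was higher without overlap, but GST 1 came within 10 CPM of the lowest GST-Ferry library (0.19 ± 0.19, edgeR, adjusted p = 0.618), and the value was 0.04 without GST 3. BPTF, the largest subunit of the NURF remodeller, had 423, 410.0 and 333 CPM in the GST libraries and 345, 319 and 285 CPM in the GST-Ferry libraries. Its groups overlapped through GST 3 alone (-0.30 ± 0.19, edgeR, adjusted p = 0.424), and without GST 3 the value was -0.42. SMARCA5 (0.17 ± 0.19), BAZ1A (-0.13 ± 0.18) and BAZ1B (0.15 ± 0.20) overlapped, and BAZ1B stood at 0.03 without GST 3.

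In the INO80 family and ATRX the median was -0.24. ATRX, which deposits histone H3.3 at repeats together with DAXX, had 264, 262 and 319.7 CPM in the GST libraries and 210.3, 210.4 and 198 CPM in the GST-Ferry libraries. All GST-Ferry libraries were below all GST libraries (-0.45 ± 0.19, edgeR, adjusted p = 0.216), GST 3 was the highest library, and the value was -0.37 without it. INO80, the ATPase of its own remodelling complex, stood at -0.44 ± 0.19, also lower without overlap. EP400, the ATPase of the TIP60 complex, was the most abundant of the class with 271, 287 and 209.8 CPM in the GST libraries and 257, 246 and 248 CPM in the GST-Ferry libraries and overlapped (-0.03 ± 0.19, edgeR, adjusted p = 0.942). SRCAP, which exchanges the histone variant H2A.Z into nucleosomes, had 29.3, 28.7 and 25.6 CPM in the GST libraries and 27.8, 31.0 and 37.0 CPM in the GST-Ferry libraries and overlapped (0.18 ± 0.21, edgeR, adjusted p = 0.662).

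The histone demethylases were the class with the highest median, 0.16, and pointed both ways. KDM3B, which acts on lysine 9 of histone H3, had 193, 191 and 197 CPM in the GST libraries and 232, 275 and 243 CPM in the GST-Ferry libraries. Every GST-Ferry library was above every GST library, and the GST libraries lay close together at 194 ± 3.31 CPM (SD, n = 3) against 249.9 ± 22.6 CPM with GST-Ferry. Its log2 fold change was 0.37 ± 0.18 (edgeR, adjusted p = 0.290) and 0.35 without GST 3. KDM6A, also called UTX, which acts on lysine 27 of histone H3, had 146, 168 and 173 CPM in the GST libraries and 119, 138 and 107 CPM in the GST-Ferry libraries and was lower without overlap (-0.42 ± 0.19, edgeR, adjusted p = 0.250). KDM5A, a demethylase of lysine 4, had 257, 245 and 264 CPM in the GST libraries and 248, 332 and 269 CPM in the GST-Ferry libraries. GST-Ferry 2 was its highest library and the groups overlapped (0.15 ± 0.19, edgeR, adjusted p = 0.709). KDM5B overlapped at 0.18 ± 0.19. The cohesin loader NIPBL had 305, 299 and 342 CPM in the GST libraries and 266, 264 and 273 CPM in the GST-Ferry libraries. It was lower without overlap, with GST 3 the highest library (-0.24 ± 0.18, edgeR, adjusted p = 0.492).

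**Figure D2:**
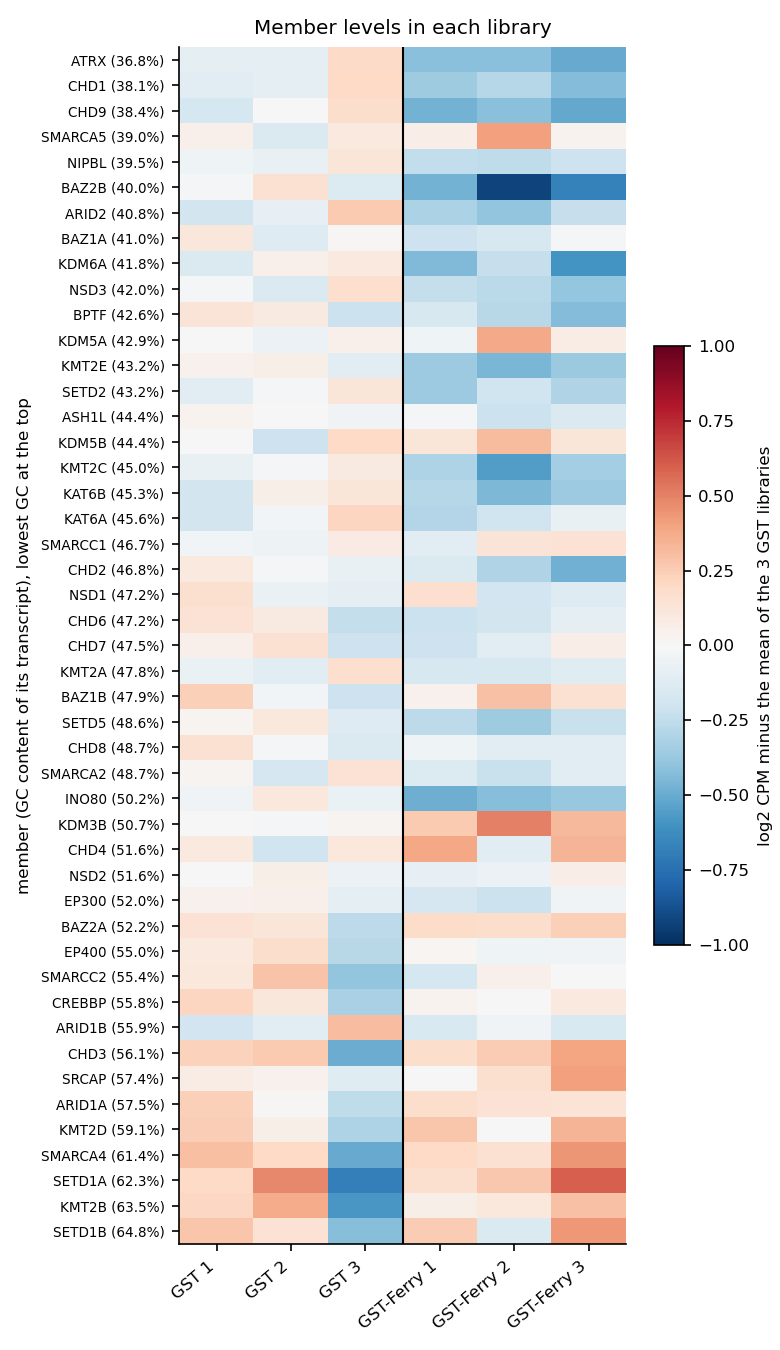
Level of each of the 47 members (rows, sorted by GC content of the transcript, lowest at the top) in each of the 6 libraries (columns), as log2 CPM minus the mean of the 3 GST libraries of that member (colour, red higher and blue lower). Many rows at the top turn blue in the GST-Ferry columns, and GST 3 is blue in 11 of the 12 rows with 55% GC or more.

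Compared per kb of transcript, the level of members over both baits ranged from 2.55 CPM per kb for SRCAP to 64.3 CPM per kb for SMARCA4. After SMARCA4 came SMARCC1 (61.0), SETD5 (48.8), NSD2 (48.4) and BAZ1B (43.8 CPM per kb). The lowest after SRCAP were CHD4 (5.04), INO80 (7.74), BAZ2B (8.32) and SETD1B (8.79 CPM per kb), and of these SRCAP and CHD4 share most of their exons with another annotated gene. Together the members took 0.977% ± 0.120 (SD, n = 3) of the counts of a GST library and 0.878% ± 0.0487 of those of a GST-Ferry library. By library this was 1.08%, 1.01% and 0.845% for GST and 0.934%, 0.844% and 0.856% for GST-Ferry, so GST 3 fell within the GST-Ferry range. The difference of -0.0992 percentage points was -0.166 without GST 3, -0.0493 without GST 1, -0.193 without GST 3 and GST-Ferry 1 and -0.0749 without the bait genes. The mean log2 level of the 47 members, relative to the GST mean, was 0.05, 0.03 and -0.07 in the 3 GST libraries in order. The values of the GST-Ferry libraries were -0.10, -0.11 and -0.06. The groups overlapped, since GST 3 lay below GST-Ferry 3.

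Across the 47 members the fold change was higher where the GC content of the transcript was higher. Spearman's rank correlation was 0.67 for GC content and 0.67 for the GC content of the third codon position. The 12859 protein-coding genes had a rank correlation of 0.59 with GC content, so the relation was not limited to the members. Genes in such a relation share the same 6 libraries and are not independent. Without GST 3 the rank correlation was 0.44 over the members and 0.26 over the protein-coding genes, and without GST 3 and GST-Ferry 1 it was 0.45 and 0.27. The relation was thus smaller without GST 3 but kept its sign in both sets. Among members, the relation with transcript length was weaker, with a rank correlation of -0.18 (-0.26 over protein-coding genes), and the rank correlation with the mean level was 0.09.

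By GC class, the 16 members under 45% GC had a median log2 fold change of -0.30, the 19 members from 45% to 55% GC a median of -0.14 and the 12 members of 55% GC or more a median of 0.15. The protein-coding genes had medians of -0.26, 0.06 and 0.34 in the same classes. Of the low GC members 10 of 16 were lower without overlap (62.5%, against 23.1% of protein-coding genes of that class). In the middle class 6 of 19 were so (31.6% against 8.7%), and in the high class 0 of 12 (0.8% of protein-coding genes). Without GST 3 the medians were -0.25, -0.12 and -0.02 for members and -0.08, 0.04 and 0.17 for protein-coding genes. In both fits the members' median lay below that of the protein-coding genes in each of the 3 classes.

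The members at the ends show this, with exceptions on either side. ATRX (36.8% GC), CHD1 (38.1%) and CHD9 (38.4%), the members of lowest GC content, stood at -0.45, -0.36 and -0.47. SMARCA5 (39.0%) followed in GC content but stood at 0.17, and KDM5A (42.9%) and KDM5B (44.4%) were the other 2 members under 45% GC above 0. INO80 (50.2%) stood lower than its neighbours in GC content, at -0.44. KDM3B (50.7%) had the highest fold change from the middle of the range.

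**Figure D3:**
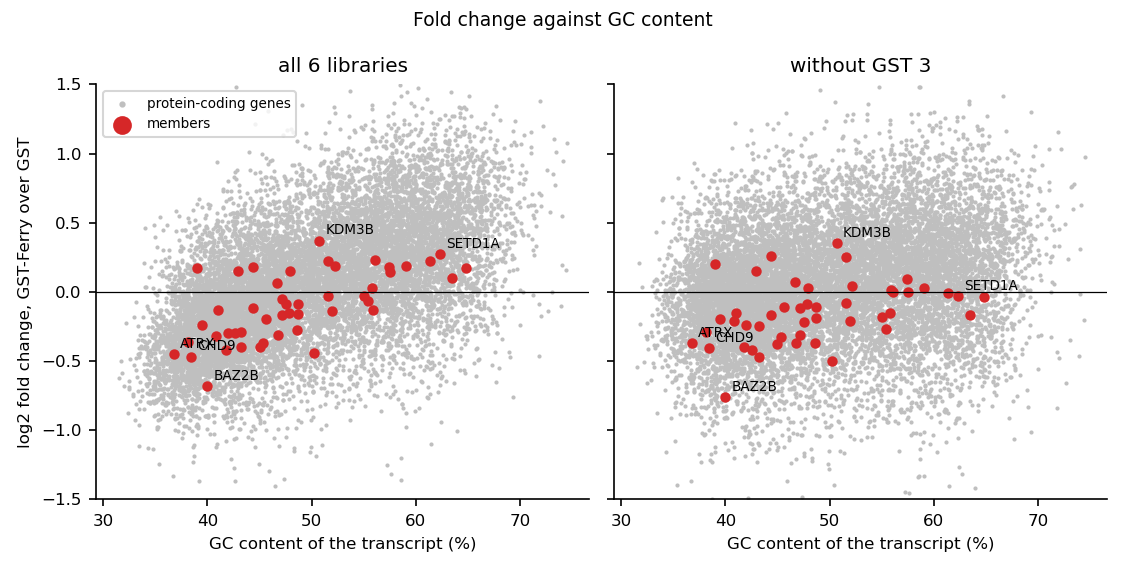
Log2 fold change (y axis, GST-Ferry over GST) against GC content of the reference transcript (x axis, %) for protein-coding genes (grey) and the 47 members (red), with all 6 libraries (left) and without GST 3 (right). Genes beyond the y range are not drawn. The slope is flatter on the right, where the rank correlation over the members is 0.44 against 0.67 on the left, and BAZ2B and KDM3B stay at the ends.

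Among members of 8 kb or more, the median log2 fold change was -0.16 over 28 members, against -0.17 over 1036 protein-coding genes of that length. The 14 members of 6 to 8 kb had a median of 0.01 and the 5 of 4 to 6 kb a median of -0.07, against -0.12 and -0.05 for protein-coding genes. Of the 28 longest members 12 were lower without overlap (42.9%, against 19.9% of protein-coding genes of that length). When each library was corrected for transcript length and GC content with a smooth curve, the members' median was -0.08, with 13 of 47 above 0 and 0 called, against 0.01 over all genes. BAZ2B (-0.45) and INO80 (-0.46) were then the lowest members and SMARCA5 (0.46) the highest. ATRX moved to -0.08, CHD9 to -0.15 and KMT2C to -0.22, while KDM3B stood at 0.34. Of the 47 members 12 changed sign in this fit, among them SETD1A (-0.04), SMARCA4 (-0.08) and NIPBL (0.05). The part of composition or length in the differences between baits was not tested beyond these values.

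Related members can be set against each other within a library, which leaves out the scaling between libraries. In 13 such pairs the log2 ratio of counts was compared between baits, and in 3 pairs the groups did not overlap. The share over other gene pairs was not computed. Of all single genes 15.0% were higher and 12.1% lower without overlap, so 3 of 13 is not read as particular to these pairs. The ratio of BAZ2A to BAZ2B was 1.44, 1.26 and 1.16 with GST and 1.94, 2.39 and 2.20 with GST-Ferry, a difference of 0.89 (0.83 without GST 3). The ratio of KMT2D to KMT2C was -0.21, -0.45 and -0.93 with GST and 0.06, 0.03 and 0.15 with GST-Ferry. KMT2D thus had fewer counts than KMT2C in every GST library and more in every GST-Ferry library, a difference of 0.61 (0.41 without GST 3). The third pair was BAZ1B to BAZ1A, with 0.88, 0.84 and 0.52 against 1.00, 1.20 and 0.92, a difference of 0.29 (0.18 without GST 3).

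The other 10 pairs overlapped. GST 3 was the lowest library of the 6 for SMARCA4 to SMARCA2, at 1.73 against 2.64 to 2.91 in the other libraries, and for KMT2B to KMT2A, at -1.87 against -0.90 to -0.65. In 11 of the 13 pairs the first gene has the higher GC content, and in 10 of these 11 the ratio was higher with GST-Ferry. Without GST 3 this held for 7 of 11. With 3 libraries of each bait, an exact two-sided permutation test of a single ratio cannot give a p below 0.10, so none is given.

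**Figure D4:**
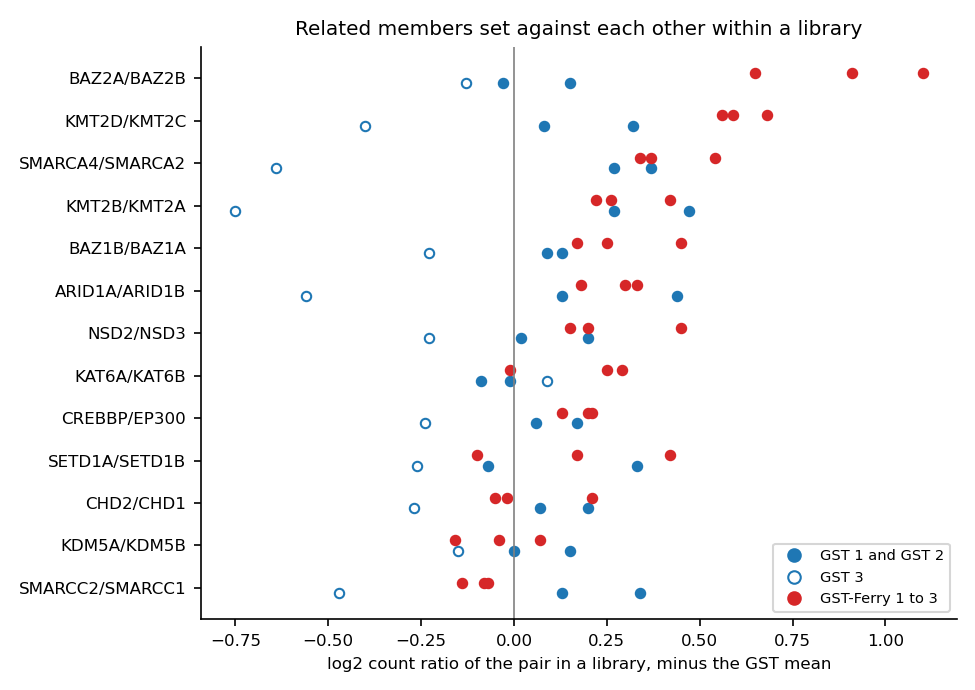
Log2 ratio of counts of 2 related members within a library, minus the mean of the 3 GST libraries (x axis), for 13 pairs (y axis). Blue points are GST 1 and GST 2, the open circle is GST 3 and red points are the GST-Ferry libraries. The red points lie to the right of all GST points for BAZ2A to BAZ2B, KMT2D to KMT2C and BAZ1B to BAZ1A, and GST 3 is the leftmost point in most pairs.

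Partner subunits of the same complexes had a higher median fold change than the members. Of 69 partners on the list 68 were tested, all but INO80B, and their median log2 fold change was 0.24 with 48 of 68 above 0, against -0.12 and 17 of 47 for the members. Here too 0 were called higher and 0 lower. With an unadjusted p under 0.05, 12 were higher (17.6%, against 11.3% of all genes) and 4 lower (5.88% against 8.05%). Without overlap, 18 were higher (26.5%, against 15.0% of all genes) and 5 lower (7.35% against 12.1%). Without GST-Ferry 2 or GST-Ferry 3 the number higher at an unadjusted p under 0.05 was 2 and 3 of 69, which is 2.90% and 4.35%, against 5.58% and 5.40% of all genes. Most partners are shorter, with a median transcript length of 3.12 kb and a median GC content of 48.7%. With the correction for length and GC content their median was 0.20, with 51 of 68 above 0, and without GST 3 it was 0.16. The difference between partners and members was not tested.

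The partners' median exceeded that of the role class set beside it in each of 7 groups. Some role classes are wider than the partners' complex. All 8 CHD remodellers were set beside NuRD partners and all 4 histone acetyltransferases beside KAT6 partners. The cohesin loader is 1 gene. In NuRD, where CHD3 and CHD4 stood at 0.23 and 0.22, the 11 partners had a median of 0.31. RBBP7, a histone-binding subunit, had 701, 827 and 1026 CPM in the GST libraries and 1148, 1965 and 1379 CPM in the GST-Ferry libraries, higher without overlap (0.81 ± 0.25, edgeR, adjusted p = 0.118). MTA2, a scaffold of NuRD, stood at 0.74 ± 0.19 and had the smallest adjusted p of the list (edgeR, adjusted p = 0.0852). In SWI/SNF the 15 partners had a median of 0.31. ACTL6A, an actin-related subunit, had 37.0, 42.8 and 59.1 CPM in the GST libraries and 61.2, 119.7 and 66.5 CPM in the GST-Ferry libraries. It was higher without overlap, with GST-Ferry 2 far above the rest (0.83 ± 0.28, edgeR, adjusted p = 0.142). SMARCE1 had 47.9, 45.9 and 80.4 CPM in the GST libraries and 41.3, 29.04 and 35.7 CPM in the GST-Ferry libraries and was the lowest partner (-0.70 ± 0.25, edgeR, adjusted p = 0.168). Without GST 3 it stood at -0.42, above BRD8 (-0.55) and EPC1 (-0.44). INO80B, with 1 to 28 counts in a library, was also tested in that fit and was the lowest of the 69 partners (-1.32). Of the exonic bases of SMARCE1 59.7% are shared with another gene on its strand.

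Among the 18 tested partners of INO80, SRCAP, EP400 and ATRX the median was 0.34. The ATPases RUVBL1 (0.58 ± 0.19) and RUVBL2 (0.66 ± 0.23) were both higher without overlap. ING3, a reader of histone methylation in the TIP60 complex, had 27.9, 32.4 and 47.1 CPM in the GST libraries and 21.5, 23.9 and 25.7 CPM in the GST-Ferry libraries and was lower without overlap (-0.60 ± 0.24, edgeR, adjusted p = 0.203), with a value of -0.39 without GST 3. The 10 partners of KMT2 and SETD1 had a median of 0.24, the 4 partners of the KAT6 enzymes 0.03, the 4 partners of SMARCA5 and BPTF 0.18 and the 6 cohesin genes 0.16. Without GST 3 RBBP7, ACTL6A, MTA2 and DPY30 were called higher and BRD8 lower, which is 5.80% and 1.45% of the 69 then tested, against the 4.45% and 3.54% given above. With GST 3 and GST-Ferry 1 left out, 14 of 69 partners were called higher (20.3% against 11.5%) and 1 lower (1.45% against 6.51%). RUVBL1, RUVBL2, MTA2, DPY30, BRD8 and EPC1 are named after their values were seen, as are the members outside the rule for named genes that are given above.

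**Figure D5:**
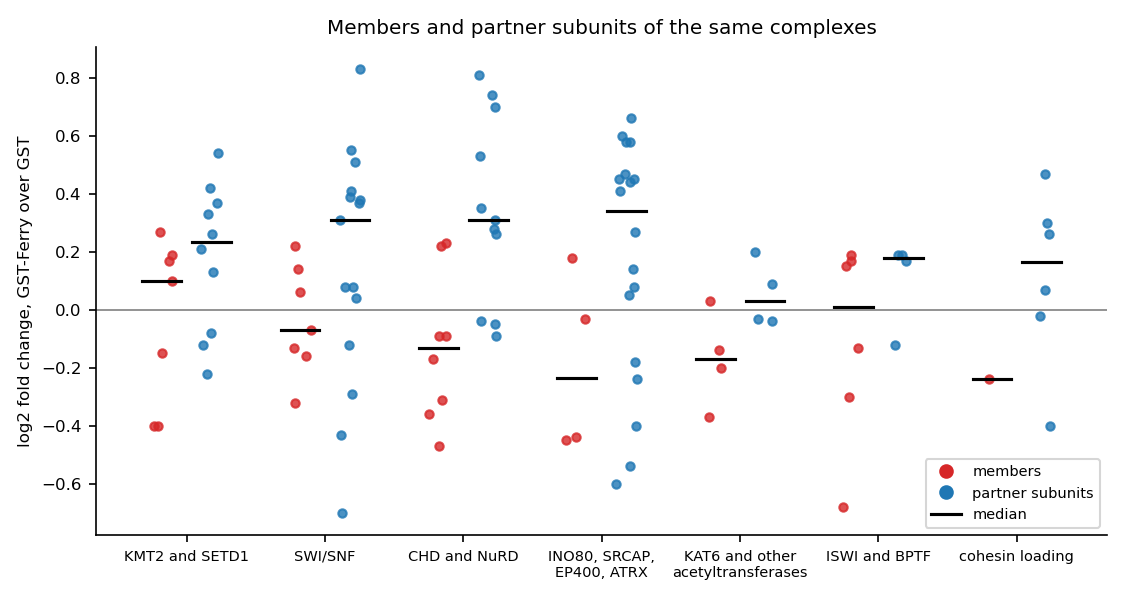
Log2 fold change (y axis, GST-Ferry over GST) of the members (red) and of partner subunits (blue), by group (x axis), with the median of each set (black line). Members are shown by role class, and the CHD and acetyltransferase classes also hold genes outside the partners' complex. Points are genes and are spread sideways only to separate them. The blue median lies above the red one in all 7 groups.

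Nuclear RNA in the eluate was followed with 6 lncRNAs listed as nuclear-retained, of which MEG3 and SNHG14 had at most 2 counts and 4 were tested. Their mean log2 level relative to the GST mean was -0.08, -0.23 and 0.31 for GST 1, 2 and 3 and 0.00, -0.45 and -0.36 for the GST-Ferry libraries, which overlapped. The value of GST 3 rested largely on OIP5-AS1, which is also found in the cytoplasm and stood at 292 CPM in GST 3 against 106 and 116 CPM in GST 1 and GST 2. Without OIP5-AS1 the means were 0.08, -0.17 and 0.10 for GST and 0.08, -0.35 and -0.29 for GST-Ferry. As a share of counts the list took 1.38%, 1.28% and 1.21% in the GST libraries and 1.05%, 0.789% and 0.773% in the GST-Ferry libraries, which did not overlap (1.29% ± 0.0868 against 0.869% ± 0.153, SD, n = 3), and MALAT1 was its most abundant RNA by CPM. MALAT1 alone was lower without overlap (-0.61 ± 0.23, edgeR, adjusted p = 0.182), with mean levels of 10840 CPM on GST and 7113 CPM on GST-Ferry. NEAT1 (-0.02 ± 0.22), KCNQ1OT1 (0.09 ± 0.23) and OIP5-AS1 (-0.66 ± 0.34) overlapped. The lower share of counts is thus not read as a trait of nuclear RNA in general. The part of nuclear RNA in the members' differences was not tested. The 23 members outside the rule for named genes had log2 fold changes between -0.44 and 0.22 and mean levels between 33.2 and 351 CPM, and the smallest adjusted p among them was 0.228 (edgeR). Of these 23, 8 lay above 0, 7 were lower without overlap (30.4%, against 12.1% of all genes) and 0 higher (15.0% of all genes).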

How the data were processed

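The authors deposited 1 table of raw read counts per gene. The submitters' processing notes name STAR 2.5.2b, bcl2fastq 2.19.1 and the build GRCh38.p13. The counting program, its annotation and its strand setting are not given in the sources used here. Per the labels' protocols the libraries were strand-specific.

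The test was fitted on the whole table with edgeR 4.0.16 (R 4.3.3) in its quasi-likelihood form, two-sided and without covariates, on genes kept by filterByExpr (minimum count 10, minimum total 15). These held 99.5% to 99.7% of counts. TMM factors were 0.923 to 1.10. A floor of 3 counts was 0.287 to 1.22 CPM, for counting error only. Adjusted p-values are Benjamini-Hochberg over 15546 genes. Symbols (42305), gene types and transcripts came from GENCODE 29, with 1 reference transcript per gene. Per-library list means used log2 CPM with a pseudocount of 2. The correction for length and GC content used splines with 5 degrees of freedom. The procedure was also run on simulated counts. These held no trend of a library with GC content, so that run cannot show how the test behaves under such a trend.

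Members and lists were chosen with earlier results of these data known. Values in every library are given for members called by the test on all libraries (none) and, in each role class, for the most abundant, the highest and the lowest by fold change, and for the 2 partners at each end; KMT2E was added after its calls were seen. No label ties the replicates to separate cultures, and the spread behind the p-values may be technical. Alternatives were other scalings (RLE, library sizes alone), no filter, DESeq2 1.42.0, limma-voom (limma 3.58.1), a replicate block, the length and GC correction, removal of the 5 bait genes, protein-coding genes only, a threshold of 0.01 and libraries left out. The relation with GC content, the related pairs without GST 3 the classes under alternatives, the role medians without GST 3, the shares of members and partners by setting and the lncRNA means without OIP5-AS1 were added after seeing the data. Figures were drawn with matplotlib 3.10.9.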

Additional observations from a re-analysis of the deposited data

How the results depend on the processing

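No member was called higher under any setting, and BAZ2B and KMT2E were the only members called lower in any of them, with 1 call in DESeq2 (BAZ2B) and 2 without GST 3 and GST-Ferry 1. Leaving out single libraries gave 0 to 1 members called lower, 1 only without GST 3.

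The members' median of -0.12 was -0.18 with library sizes alone, -0.18 with no filter (where the median of all genes was also -0.18), -0.18 with protein-coding genes only, and -0.17 to -0.09 with 1 library left out. The partners' median of 0.24 was 0.10 to 0.30 in the leave-one-out fits. With DESeq2, 2 of 68 partners were called higher, against 4.71% of all genes. With no filter it was 2 of 69, against 421 of 32648 genes. With length and GC offsets it was 3 of 68, against 268 of 15437 genes. Without GST 3 and GST-Ferry 1 it was 14 of 69 (20.3% against 11.5%), with 1 lower (1.45% against 6.51%). With 1 library left out it was 0 to 4, with 0 to 1 lower. The 4 were called without GST 3 (5.80% against 4.45% of all genes), as was the 1 lower (1.45% against 3.54%).

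Over all genes, 92 were called higher and 5 lower. The counts were 534 and 177 with DESeq2, 11 and 0 with RLE size factors, 7 and 0 with library sizes alone, 14 and 0 with limma-voom, 421 and 323 with no filter, 268 and 45 with length and GC offsets, 78 and 9 with protein-coding genes only, 0 and 0 at a threshold of 0.01, and 1754 and 992 without GST 3 and GST-Ferry 1. With 1 library left out they ran from 0 to 701 and from 0 to 558, highest without GST 3 and at 0 without GST-Ferry 2, where 910 higher and 794 lower had an unadjusted p under 0.05.

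With length and GC offsets, which were built to remove such relations, the rank correlation over members was -0.13 with GC content and 0.08 with length, and the rank correlation with length over protein-coding genes was -0.13. The last was -0.15 with no filter. The rank correlation of members with GC content was 0.45 without GST 3 and GST-Ferry 1 and 0.44 to 0.75 with 1 library left out.

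Of 384 refitted fold changes of named members, 23 changed sign. With the offsets these were SETD1A (-0.04), NSD1 (0.05), CREBBP (-0.13), SMARCA4 (-0.08), SRCAP (-0.04) and NIPBL (0.05). CREBBP was -0.06 with library sizes alone, -0.03 with no filter, -0.03 with protein-coding genes only and -0.11 without GST 3 and GST-Ferry 1, and SMARCC1 was -0.01 with library sizes alone and just below 0 with protein-coding genes only. With 1 library left out, the lowest and highest values were -0.16 to 0.02 for NSD1, -0.18 to 0.04 for EP400, -0.03 to 0.50 for SETD1A, -0.15 to 0.12 for CREBBP, -0.00 to 0.34 for CHD3, -0.01 to 0.36 for SMARCA4, -0.10 to 0.01 for NSD2, -0.02 to 0.14 for SMARCC1 and -0.02 to 0.24 for KDM5A. Apart from what construction sets, the cause was not tested.

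The replicate numbers were not taken as pairs, because same-numbered libraries of the 2 baits had correlations of deviations of 0.246, 0.079 and -0.133, and GST 2 and GST 3 each correlated best with a library of another number. With a replicate block 167 genes were called higher and 28 lower, and 0 members, and 1 member (2.13%) was lower at an unadjusted p under 0.05, against 7.33% of all genes. Depth limits GST-Ferry 2 and 3 most, with medians of 492 and 443 counts per member.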
